A study of Mus musculus with 32 samples.

Results

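The mitosis genes are 42 genes whose proteins carry a dividing cell from the onset of mitosis to the separation of its daughters. They were taken by name from a list, and all 42 were found among the 41388 genes of the count tables. All 42 were also among the 14527 genes that passed the filter on low counts, so no member was lost to it. By role they comprise 6 cyclins and mitotic kinases (Ccna2, Ccnb1, Ccnb2, Cdk1, Aurka, Plk1), 2 partners of the anaphase promoting complex (Cdc20, Ube2c), 7 kinetochore proteins (Cenpa, Cenpe, Cenpf, Ndc80, Nuf2, Spc24, Spc25) and 4 spindle checkpoint proteins (Bub1, Bub1b, Mad2l1, Ttk). The others are 3 members of the chromosomal passenger complex (Aurkb, Birc5, Incenp), 8 kinesins (Kif11, Kif15, Kif20a, Kif20b, Kif22, Kif23, Kif2c, Kif4), 6 spindle assembly proteins (Aspm, Ckap2l, Hmmr, Nusap1, Prc1, Tpx2), 2 cytokinesis proteins (Anln, Ect2) and 4 proteins of chromosome structure (Mki67, Ncapg, Ncaph, Top2a).

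The members were followed in RNA-seq libraries of the whole marrow of the femur from C57BL/6 mice at 2 months of age, in 8 groups of 4 libraries. DTRADQ mice (labelled DTR flox, ADQ Cre+) came from a cross of iDTR mice, which hold a diphtheria toxin receptor that Cre switches on, with adiponectin-Cre mice. Controls (labelled DTR flox, No Cre) were littermates that had the floxed receptor allele and lacked Cre. Both genotypes were sampled with no diphtheria toxin (DT) and after 1, 2 or 3 days of daily intraperitoneal DT at 100 ng per mouse, so controls at days 1 to 3 had received DT too. Adiponectin-Cre acts in fat cells and in marrow stromal cells that express adiponectin, whereas a transcript in whole marrow can come from any cell there. No label says whether the libraries of a group came from separate mice, so p-values measure the spread between libraries, which may be technical.

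During mitosis, cyclins bound to CDK1 start the condensation of chromosomes and the assembly of the spindle, kinetochores tie chromosomes to spindle fibres, and the checkpoint holds the cell until every kinetochore is attached. CDC20 then activates the anaphase promoting complex, which together with UBE2C marks cyclin B and securin for destruction, so that sister chromatids separate and cytokinesis divides the cell. Most of these genes are transcribed in a wave before and during mitosis, when MYBL2 and FOXM1 replace repressors of the DREAM complex at promoters. In marrow the dividing cells are mainly red cell precursors, granulocyte precursors, B cell precursors and progenitors.

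Genes of this wave often have a CHR element (TTTGAA), at which the DREAM complex and its MYBL2 and FOXM1 partners bind, near the start of transcription and CCAAT boxes, bound by NF-Y, upstream of it. Of the 42 members, 36 matched the RefSeq promoter table (GRCm38.p6) by symbol, with 38 windows of 300 bases, 250 before and 50 after a start. Kif20a, Ccna2, Aurkb, Tpx2, Spc24 and Incenp had no window. Stretches of 120 bases before the start are shown for 6 members that span the response at day 3: Mki67 has the largest change and Bub1b the smallest, Top2a the highest CPM, and Kif22, Ckap2l and Nusap1 stand between them. Capitals mark CHR and CCAAT letters on either strand (TTCAAA and ATTGG on the reverse strand), and each is written 5′ to 3′ on the strand of its gene. They lie at chr11:99024190-99024309 on the minus strand (Top2a), chr7:127042421-127042540 on the minus strand (Kif22), chr2:129297213-129297332 on the minus strand (Ckap2l), chr7:135716380-135716499 on the minus strand (Mki67), chr2:118598091-118598210 on the plus strand (Bub1b) and chr2:119618178-119618297 on the plus strand (Nusap1).
Top2a: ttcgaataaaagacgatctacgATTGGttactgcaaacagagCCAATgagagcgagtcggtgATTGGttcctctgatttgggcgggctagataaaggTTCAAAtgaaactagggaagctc
Kif22: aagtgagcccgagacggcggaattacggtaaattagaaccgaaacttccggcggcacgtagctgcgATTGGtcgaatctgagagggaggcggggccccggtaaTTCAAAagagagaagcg
Ckap2l: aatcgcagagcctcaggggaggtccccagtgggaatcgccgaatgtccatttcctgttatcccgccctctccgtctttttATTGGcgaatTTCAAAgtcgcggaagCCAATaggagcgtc
Mki67: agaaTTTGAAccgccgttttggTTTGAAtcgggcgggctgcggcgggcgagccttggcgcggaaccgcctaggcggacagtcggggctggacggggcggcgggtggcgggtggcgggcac
Bub1b: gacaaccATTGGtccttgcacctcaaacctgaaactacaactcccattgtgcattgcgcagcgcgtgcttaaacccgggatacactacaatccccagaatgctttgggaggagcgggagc
Nusap1: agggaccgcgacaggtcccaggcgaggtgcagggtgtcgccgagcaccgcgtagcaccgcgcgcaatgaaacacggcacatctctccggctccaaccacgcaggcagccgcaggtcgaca
Top2a, Kif22 and Ckap2l have a CHR close to the start with CCAAT letters before it, the Mki67 stretch has 2 CHR matches far from the start, the Bub1b stretch has 1 CCAAT match and no CHR, and the Nusap1 stretch has neither. The stretches stop at the start, and the windows go past it. The Bub1b window has a CHR match at base 41 after the start, and Cenpf and Hmmr have their only CHR match at bases 3 and 9.

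CHR letters were in 30 of the 38 member windows (78.9%), against 17.9% of the 32851 windows in the table. From 60 bases before to 30 after the start they were in 25 windows (65.8%, against 4.9% of all windows), a range set after the data were seen. At least 1 CCAAT match was in 28 windows (73.7%, against 37.4%), and at least 2 were in 20 (52.6%, against 11.7%). A CHR in that range together with a CCAAT match was in 21 windows (55.3%, against 2.1%). E2F letters (TTTGGCGC, TTTCCCGC, TTTCGCGC, TTTGGCGG or TTTCCCGG) were in 5 (13.2%, against 3.6%). All motifs were searched on both strands and counted separately, so matches of different motifs may share bases, and a match describes letters and shows no binding.

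Library totals ran from 8966165 to 22929352 counts, and levels below are CPM, counts scaled to a common library size, with TMM factors that adjust for a few very abundant genes. Control replicates 3 and 4 without DT stood apart from all other libraries: they had the lowest totals (9490569 and 8966165 counts), and the 10 most abundant genes took 37.41% and 50.69% of their counts. Results that rest on them are given with and without them, but leaving them out does not make that group like DTRADQ without DT. Over all 4 of its libraries B cell precursor markers summed to 1652 to 2090 CPM, against 923.4 to 1124 CPM in DTRADQ without DT. Megakaryocyte markers summed to 4311 to 6433 against 2748 to 3580 CPM, while erythroblast markers overlapped (6150 to 8640 and 5548 to 7881 CPM). Mature neutrophil genes summed to 117300 CPM in control replicate 2 without DT. The 8 marker genes of the adiponectin stroma, which check the labels, summed to between 534.6 and 767.2 CPM in both genotypes without DT. At day 3 they summed to 35.31 to 45.42 CPM in DTRADQ against 600.6 to 736 CPM in controls. All 8 were called lower at each of days 1, 2 and 3 (3.02%, 4.12% and 14.1% of all genes were). Markers of marrow were present throughout: late red cell genes summed to at least 54870 CPM and mature neutrophil genes to at least 34390 CPM in every library.

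Per kilobase of deposited gene length, Ccnb2 (cyclin B2) had the highest mean level over the 32 libraries, with 158 CPM per kilobase. It was followed by Nusap1 at 111, Top2a at 94.8, Birc5 at 94.7, Ube2c at 89.5 and Cdk1 at 77 CPM per kilobase. The lowest levels on this scale were those of Aspm at 6.29 and Ttk at 7.44 CPM per kilobase. The median within-group SD of log2 CPM was 0.228 over the members and 0.317 over all genes tested. The genes were not matched for level, so the lower spread is not shown to be particular to the members.

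After 3 days of DT, 38 of the 42 mitosis genes were lower in DTRADQ than in controls and none was higher, while 4 did not pass. Of all genes tested, 14.1% were called lower in that comparison. The median log2 change of the members was −0.73, with a range from −1.30 (Mki67) to −0.14 (Bub1b), and the median of all genes was −0.02. All 4 DTRADQ libraries lay below all 4 control libraries for 40 of the members, an arrangement found for 20.4% of all genes tested. Summed over the members, the level was 3360 to 4293 CPM in DTRADQ and 6307 to 7512 CPM in controls. In whole marrow a smaller share of dividing cells and less of each transcript per dividing cell cannot be told apart.

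**Figure D1:**
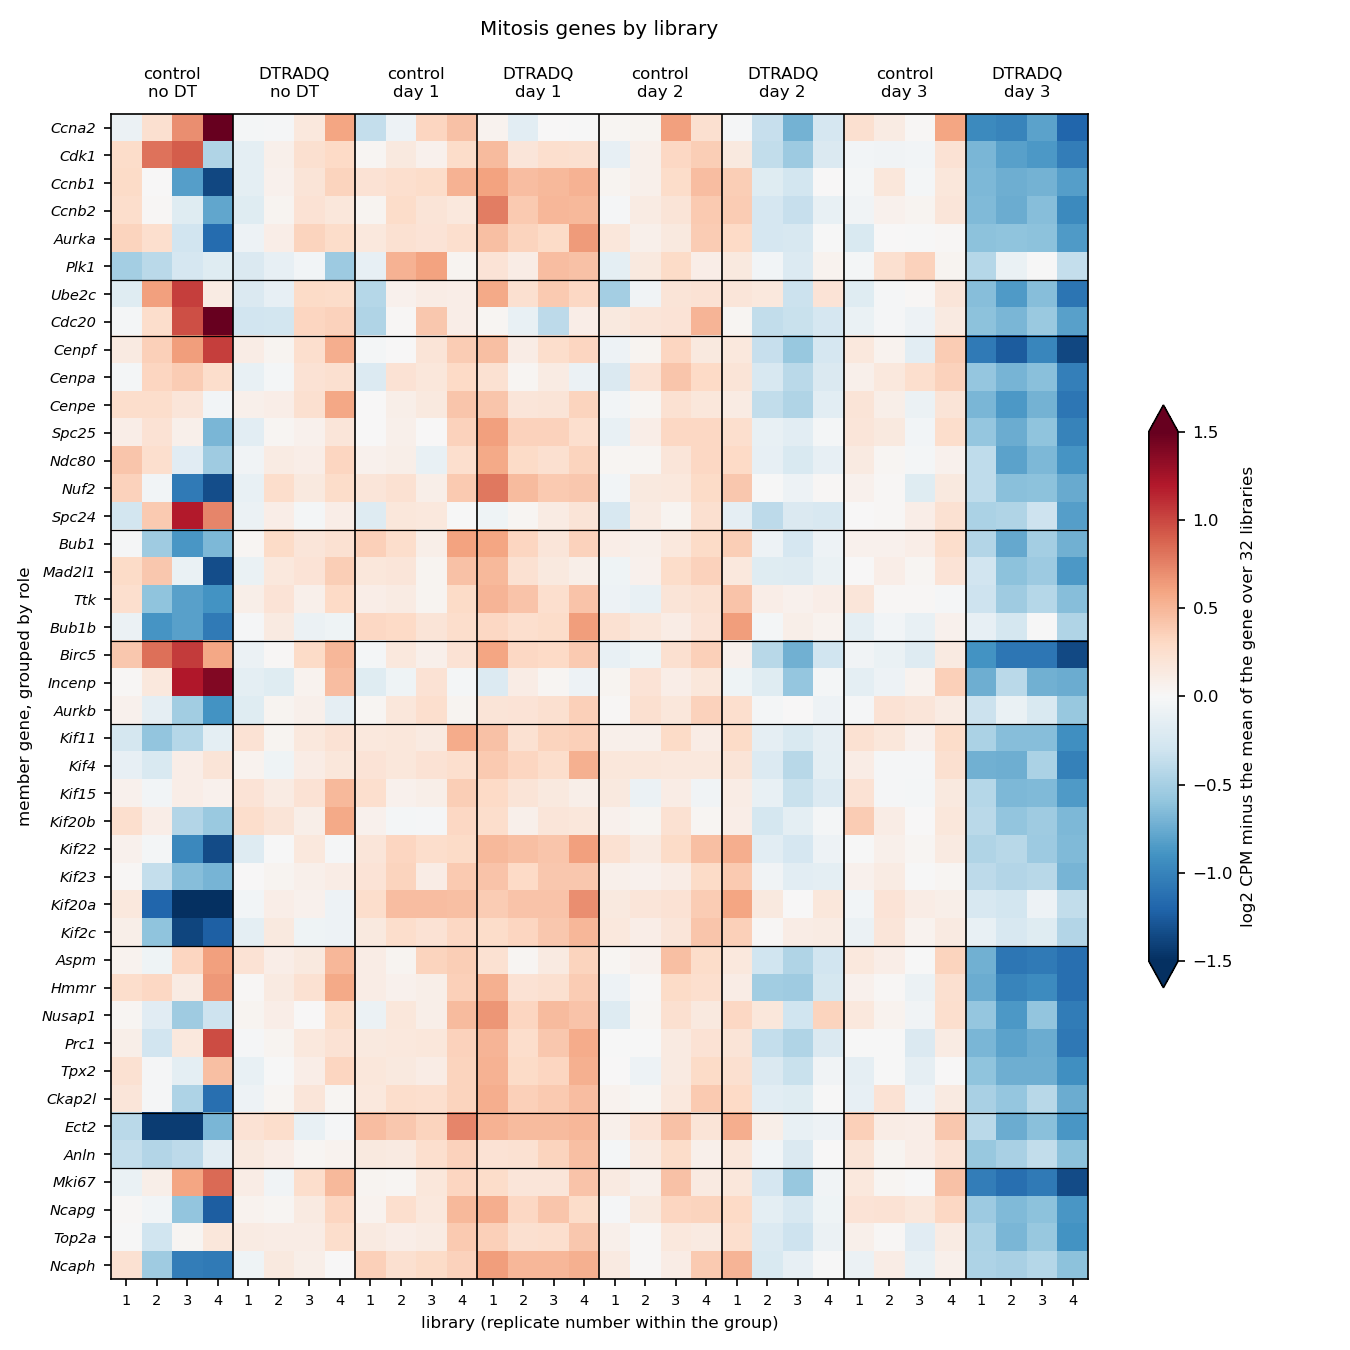
Level of the 42 mitosis genes (vertical axis, grouped by role) in the 32 libraries (horizontal axis, 4 replicates per group), as log2 CPM minus the mean of each gene over all libraries; the colour scale ends at −1.5 and 1.5. The DTRADQ libraries of day 3 are low in nearly every member, and control replicates 3 and 4 without DT are high in some members (Ccna2, Cdc20, Incenp) and low in others (Kif20a, Kif2c, Ccnb1).

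The cyclins and mitotic kinases, which start and drive mitosis, were lower in 5 of 6 cases at day 3. Cdk1, the kinase that cyclins A and B activate (ENSMUSG00000019942, chromosome 10, 69336635 to 69352938, minus strand, GRCm38 as for all genes below), stood at 247, 244, 247 and 295 CPM in control replicates 1 to 4 and at 157, 144, 139.7 and 124 CPM in DTRADQ. The genotypes did not overlap, and the group means were 258 ± 24.4 and 141 ± 13.7 CPM (SD, n = 4). Its log2 change was −0.87 (SE 0.19, adjusted p = 0.0012), with p-values from edgeR's quasi-likelihood test adjusted by Benjamini-Hochberg over all genes, as in all that follows. Ccna2, cyclin A2, which acts in S phase and at the entry to mitosis (ENSMUSG00000027715, chromosome 3, 36564866 to 36572150, minus strand), stood at 73, 67.1, 62.4 and 92.7 CPM in controls and 31.7, 31.1, 35.4 and 27 CPM in DTRADQ. Every DTRADQ library was below every control library, and the log2 change of −1.24 (SE 0.24, adjusted p = 2.8e-04) was among the 3 largest. Of the cyclins that drive entry into mitosis, Ccnb1 changed by −0.81 (SE 0.20, adjusted p = 0.0041) and Ccnb2 by −0.81 (SE 0.17, adjusted p = 6.5e-04). Aurka, the kinase of the spindle poles, changed by −0.62 (SE 0.19, adjusted p = 0.0147). Plk1, a kinase needed from mitotic entry to cytokinesis, did not pass: it lay at 30.4 to 39.6 CPM in controls and at 23.2 to 30.9 CPM in DTRADQ, with overlapping groups and a log2 change of −0.37 (SE 0.15, adjusted p = 0.0697).

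Both partners of the anaphase promoting complex were lower, with a summed level of 119 to 160.2 CPM in DTRADQ and 220 to 282 CPM in controls. Ube2c, its ubiquitin-conjugating enzyme (ENSMUSG00000001403, chromosome 2, 164769898 to 164778822, plus strand), stood at 196, 219.7, 226 and 253 CPM in controls and 143, 124, 143 and 105 CPM in DTRADQ. The groups did not overlap, and the log2 change was −0.80 (SE 0.20, adjusted p = 0.0039). Cdc20, the activating subunit that the checkpoint holds back (ENSMUSG00000006398, chromosome 4, 118432901 to 118437352, minus strand), stood at 24, 25.4, 24.3 and 28.2 CPM in controls and 16.8, 16, 17.5 and 14.6 CPM in DTRADQ. These groups did not overlap either, with a log2 change of −0.65 (SE 0.22, adjusted p = 0.0330), a call that was lost when any 1 of 6 of the 8 libraries was left out (adjusted p = 0.0544 to 0.0915).

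All 7 kinetochore genes were lower, and their summed level was 424 to 558 CPM in DTRADQ against 854 to 1051 CPM in controls. Cenpf, a large protein of the outer kinetochore (ENSMUSG00000026605, chromosome 1, 189640599 to 189688086, minus strand), stood at 241, 223, 194 and 281 CPM in controls and 104, 91.1, 109 and 83.9 CPM in DTRADQ. The lowest control was well above the highest DTRADQ library, and the means of 235 ± 36.4 and 97 ± 11.6 CPM (SD, n = 4) gave a log2 change of −1.28 (SE 0.18, adjusted p = 2.8e-06). Cenpa, the histone variant that marks centromeres, changed by −0.93 (SE 0.15, adjusted p = 2.0e-05), and Cenpe, the kinesin of the kinetochore, by −0.93 (SE 0.14, adjusted p = 1.1e-05). The 4 subunits of the NDC80 complex, which grips microtubules, changed by −0.87 (Spc25), −0.72 (Ndc80), −0.60 (Nuf2) and −0.60 (Spc24). Spc24 (ENSMUSG00000074476, chromosome 9, 21755442 to 21760286, minus strand) stood at 46.1, 46.3, 49.3 and 53.9 CPM in controls and 32.9, 33.5, 36.8 and 25.9 CPM in DTRADQ, with no overlap (SE 0.17, adjusted p = 0.0122). Its call was lost without DTRADQ replicate 4 (adjusted p = 0.0584), and that of Nuf2 (adjusted p = 0.0358) without any 1 of 7 libraries (0.0568 to 0.113).

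Of the 4 spindle checkpoint genes 3 were lower, and the sum of the 4 was 193 to 260 CPM in DTRADQ against 314 to 351 CPM in controls. Mad2l1, the protein that binds CDC20 while kinetochores are unattached (ENSMUSG00000029910, chromosome 6, 66535390 to 66541033, plus strand), stood at 144, 153, 145 and 165 CPM in controls and 117, 93, 97.7 and 78.4 CPM in DTRADQ. The groups did not overlap, and the log2 change was −0.65 (SE 0.21, adjusted p = 0.0205), which no longer passed without control replicate 4 or DTRADQ replicate 2, 3 or 4 (adjusted p = 0.061 to 0.0796). The checkpoint kinases Bub1 and Ttk changed by −0.73 (SE 0.15, adjusted p = 4.8e-04) and −0.52 (SE 0.16, adjusted p = 0.0154). The call of Ttk was lost without DTRADQ replicate 2, 3 or 4 (adjusted p = 0.0563 to 0.0734). Bub1b, which encodes BUBR1, the other inhibitor of CDC20 (ENSMUSG00000040084, chromosome 2, 118598211 to 118641591, plus strand), had the smallest change of all members. It stood at 70.8, 76.5, 72.5 and 82.5 CPM in controls and 72.3, 65.3, 78.6 and 57.5 CPM in DTRADQ. These libraries overlapped, and the log2 change was −0.14 (SE 0.15, adjusted p = 0.5475).

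The chromosomal passenger complex, which corrects wrong attachments and later directs cytokinesis, was lower in all 3 members, with a summed level of 199 to 253 CPM in DTRADQ and 399 to 473 CPM in controls. Birc5, survivin (ENSMUSG00000017716, chromosome 11, 117849251 to 117855743, plus strand), stood at 291, 283, 263 and 332 CPM in controls and 162, 143, 143 and 119 CPM in DTRADQ. The genotypes were far apart, with a log2 change of −1.05 (SE 0.17, adjusted p = 2.1e-05). Incenp, the scaffold of the complex (ENSMUSG00000024660, chromosome 19, 9872297 to 9899533, minus strand), stood at 35.7, 37.5, 40.7 and 50.3 CPM in controls and 23.8, 29.8, 23.9 and 23.5 CPM in DTRADQ. DTRADQ replicate 2 was the highest of its group and still below all controls, and the log2 change was −0.70 (SE 0.21, adjusted p = 0.0129), which was lost without control replicate 4 (adjusted p = 0.0636). Aurkb, the kinase of the complex, changed by −0.42 (SE 0.14, adjusted p = 0.0278), a call lost without any 1 of 6 libraries and without the filter on low counts (adjusted p = 0.0583 to 0.117).

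Among the kinesins, motor proteins that move along or take apart microtubules, 6 of 8 were lower and all 8 had groups that did not overlap, with a summed level of 509 to 624 CPM in DTRADQ and 838 to 914 CPM in controls. Kif22, which pushes chromosome arms (ENSMUSG00000030677, chromosome 7, 127027732 to 127042420, minus strand), stood at 139, 147, 143 and 153 CPM in controls and 102, 104, 95.8 and 88.1 CPM in DTRADQ. The log2 change was −0.58 (SE 0.19, adjusted p = 0.0304) with no overlap, and the call was lost without any 1 of 6 libraries (adjusted p = 0.0557 to 0.102). Kif11, which pushes spindle poles apart, changed by −0.85 (SE 0.13, adjusted p = 1.0e-05), Kif4 by −0.81 (SE 0.12, adjusted p = 9.9e-06) and Kif15, which can share the work of Kif11, by −0.73 (SE 0.12, adjusted p = 2.1e-05). Kif20b changed by −0.72 (adjusted p = 4.5e-04) and Kif23, a subunit of centralspindlin, by −0.53 (adjusted p = 0.0039). The other 2 kinesins did not pass. Kif20a, which carries the passenger complex to the midzone (ENSMUSG00000003779, chromosome 18, 34624624 to 34633265, plus strand), stood at 88.6, 105, 98.8 and 96.8 CPM in controls and 77.4, 75.3, 86.3 and 70.6 CPM in DTRADQ, just apart, with a log2 change of −0.33 (SE 0.25, adjusted p = 0.3701). Kif2c, which depolymerises microtubules at kinetochores (ENSMUSG00000028678, chromosome 4, 117159639 to 117182639, minus strand), stood at 57.4, 69, 63.3 and 66.9 CPM in controls and 56.2, 51.7, 53.8 and 45 CPM in DTRADQ, also just apart, with a log2 change of −0.31 (SE 0.18, adjusted p = 0.2123). When only the 8 libraries of day 3 entered the fit, Kif20a, Kif2c and Plk1 passed. Over all alternatives Kif20a passed in 2 (adjusted p = 0.00923 to 0.0369), Kif2c in 3 (0.0115 to 0.0446) and Plk1 in 4 (0.0138 to 0.0387).

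All 6 spindle assembly genes and both cytokinesis genes were lower. Nusap1, which bundles microtubules around chromosomes (ENSMUSG00000027306, chromosome 2, 119618298 to 119651244, plus strand), stood at 489, 453, 422 and 521 CPM in controls and 293, 241, 289 and 211 CPM in DTRADQ. The groups did not overlap, and the log2 change was −0.87 (SE 0.16, adjusted p = 1.3e-04). Aspm, a protein of spindle poles, changed by −1.14 (SE 0.15, adjusted p = 1.4e-06), and Hmmr, a microtubule-binding protein of the spindle, by −1.01 (SE 0.15, adjusted p = 8.3e-06). Prc1, which crosslinks the midzone, changed by −0.80, Tpx2, the activator of Aurora A, by −0.68 and Ckap2l by −0.60 (adjusted p = 0.0013, 4.3e-04 and 0.0096). Ect2, which switches on RHOA at the cell equator (ENSMUSG00000027699, chromosome 3, 27097222 to 27153878, minus strand), stood at 85.9, 72.5, 72 and 88.7 CPM in controls and 51, 40.1, 43.5 and 36.6 CPM in DTRADQ, with no overlap. Its log2 change was −0.90 (SE 0.18, adjusted p = 2.9e-04), and that of Anln, anillin of the contractile ring, was −0.64 (SE 0.10, adjusted p = 1.9e-05).

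The 4 genes of chromosome structure were lower too. Mki67, the Ki-67 protein that coats mitotic chromosomes and is used to stain dividing cells (ENSMUSG00000031004, chromosome 7, 135689788 to 135716379, minus strand), had the largest change of the 42. It stood at 655, 597, 583 and 791 CPM in control replicates 1 to 4 and 286, 268, 280.3 and 229.9 CPM in DTRADQ. The lowest control library was at more than 2 times the level of the highest DTRADQ library, and the log2 change was −1.30 (SE 0.18, adjusted p = 3.2e-06). Top2a, the topoisomerase that untangles sister chromatids (ENSMUSG00000020914, chromosome 11, 98992943 to 99024189, minus strand), stood at 884, 850.1, 743 and 911 CPM in controls and 604, 523, 564 and 451 CPM in DTRADQ. These groups did not overlap, with a log2 change of −0.66 (SE 0.14, adjusted p = 6.4e-04). The condensin subunits Ncapg and Ncaph changed by −0.90 (SE 0.17, adjusted p = 2.8e-04) and −0.50 (SE 0.18, adjusted p = 0.0453), and the call of Ncaph was lost without any 1 of the 8 libraries and in 3 other fits (adjusted p = 0.0523 to 0.127).

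**Figure D2:**
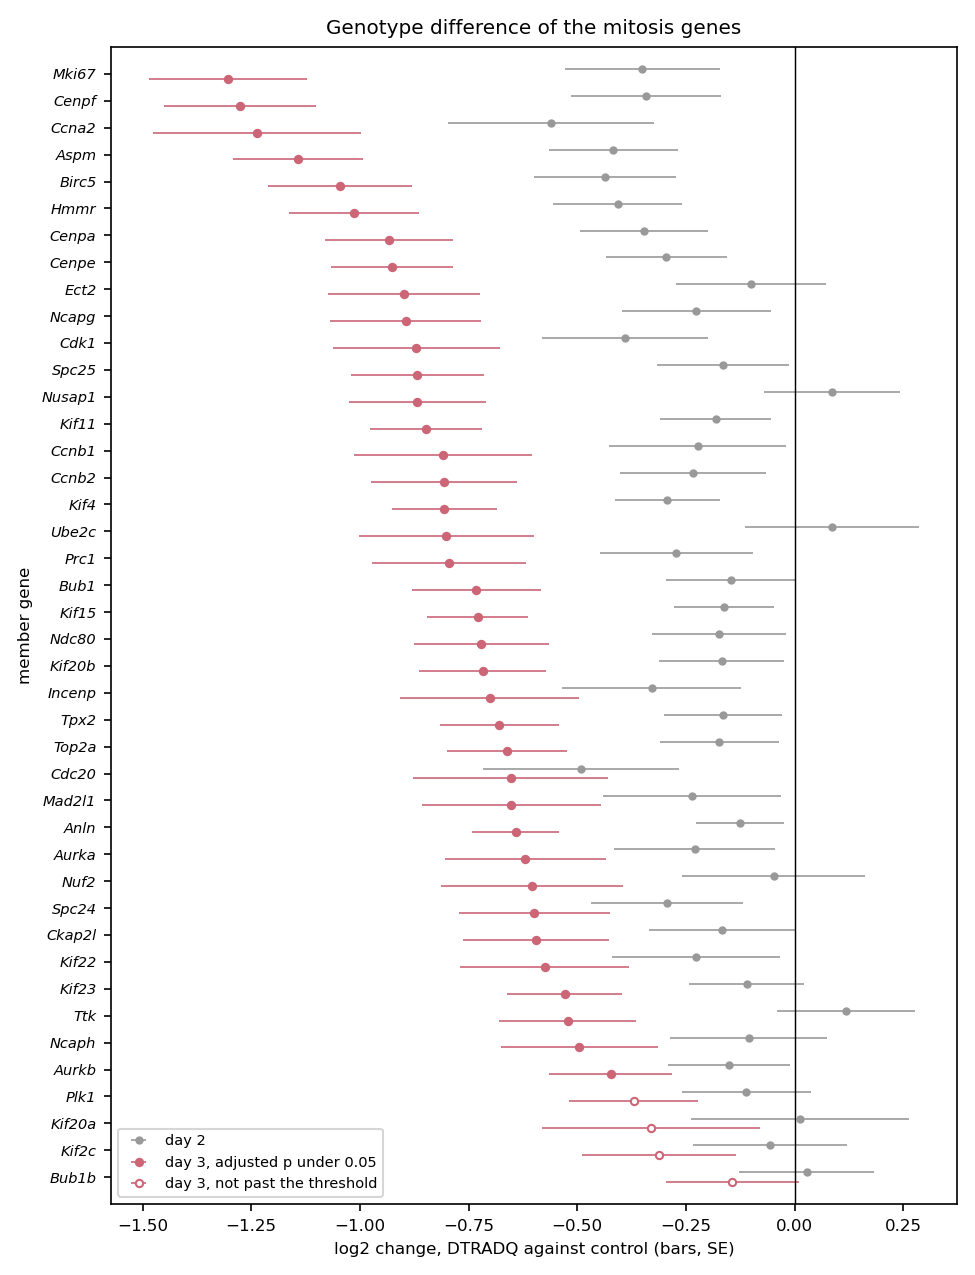
Log2 change of each mitosis gene in DTRADQ against controls (horizontal axis) with its standard error (bars), at day 2 (grey) and day 3 (red), with members in the order of the day 3 change. Filled red points passed the threshold at day 3 and the 4 open ones (Plk1, Kif20a, Kif2c, Bub1b) did not, and no point of day 2 passed.

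By size, 6 members were at least 2-fold lower at day 3, 27 were between 1.5-fold and 2-fold lower, and 9 were less than 1.5-fold lower. Within DTRADQ at day 3, replicate 4 had the lowest level of 40 of the 42 members, and replicate 1 the highest of 26. Leaving out replicate 4 gave 29 called members, the fewest of any left-out library, and all alternatives together gave 29 to 41. The call held in every alternative for 28 members and was lost in at least 1 for 10. Across the 42 members, those with a longer deposited gene length had larger falls (Spearman's rho −0.39 between length and log2 change). More abundant members also had larger falls (−0.42 between mean CPM and log2 change), while rho with length was 0.04 over all genes. These relations are across genes of the same libraries, which are not independent. The 24 members with a CHR near the start had a median change of −0.80 (−1.27 to −0.37), and the 12 members with a window but none there had −0.69 (−1.30 to −0.14).

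**Figure D3:**
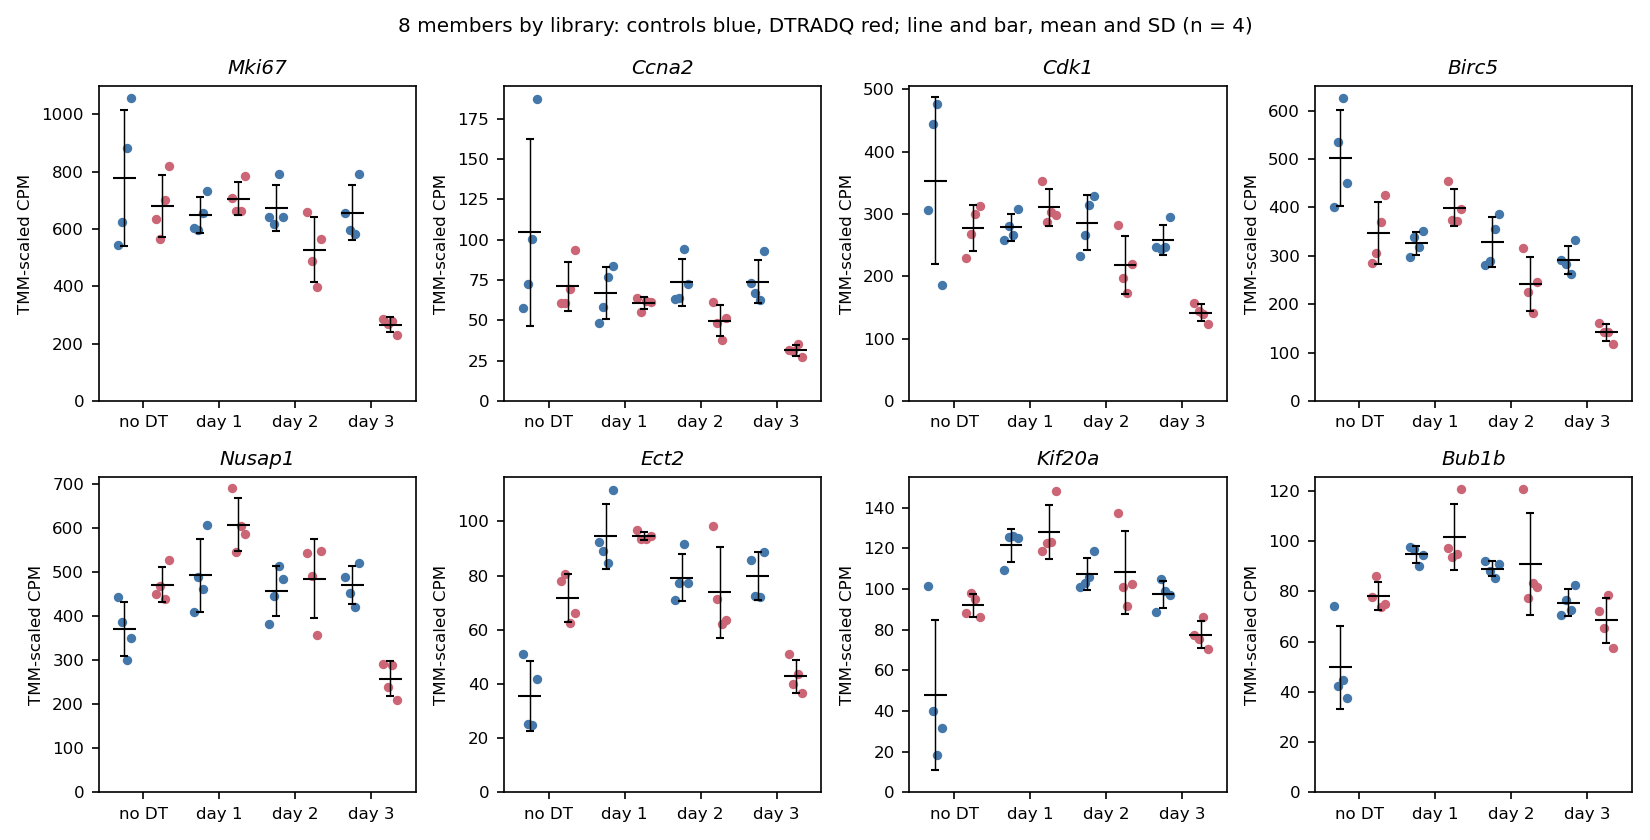
CPM (vertical axes, from 0) of 8 mitosis genes in each library by day of DT (horizontal axes), controls in blue and DTRADQ in red; lines and bars are the mean and SD of 4 libraries. At day 3 Mki67, Ccna2, Cdk1, Birc5, Nusap1 and Ect2 are apart between genotypes with DTRADQ below, Kif20a is narrowly apart, and Bub1b overlaps.

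After 1 day of DT no member was called between the genotypes (3.90% of all genes were). With edgeR 1 member had an unadjusted p under 0.05, and DESeq2 called none. The median log2 change of the members was 0.13, against −0.01 for all genes, and it was −0.11 against −0.25 for all genes when libraries were scaled by their totals alone, so its sign depends on the scaling. The 4 DTRADQ libraries lay above the 4 controls for 9 members (5.08% of all genes did so). Ube2c was 1 of them, with 165, 233, 242 and 239.5 CPM in controls and 329.9, 264, 293 and 276 CPM in DTRADQ and a log2 change of 0.40 (SE 0.20, adjusted p = 0.3149). The other members that were apart included Ccnb2 (0.37), Nuf2 (0.30), Birc5 (0.29) and Kif22 (0.23), none of which passed.

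After 2 days no member was called either (8.52% of all genes were), although 9 had an unadjusted p under 0.05 in edgeR, and DESeq2 again called none. The median was −0.18, against −0.04 for all genes, and 3 members were apart with DTRADQ below (10.7% of all genes were). These were Ccna2 (−0.56, SE 0.24, adjusted p = 0.1330), Cdc20 (−0.49, SE 0.23, adjusted p = 0.1677) and Incenp (−0.33, SE 0.21, adjusted p = 0.3292). DTRADQ replicate 1 differed from its group: it had the highest level of 39 of the 42 members, and its members summed to 7718 CPM against 5150 to 6227 CPM in replicates 2 to 4 and 6499 to 7702 CPM in controls. Mki67, for example, stood at 660, 489, 396 and 566 CPM in DTRADQ replicates 1 to 4 and 642, 616, 793 and 640.1 CPM in controls at day 2. Replicates 2 to 4 were below every control and replicate 1 was above 3 of them. Without DTRADQ replicate 1, 5 members were called lower.

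The counts at day 2 moved with the fit and are given without the share of all genes called in each fit. The fit of only the groups of day 2 called 2 members, the replicate block 2, voom with library weights 14, and scaling by library totals, which moves the median of all genes to −0.36, called 20, all of them lower. Without control replicates 3 and 4 of the group with no DT, which do not enter the comparison but share its estimate of the spread, 6 were called lower. The estimates at day 2 ran from −0.56 (Ccna2) to 0.12 (Ttk), and Nusap1, which was at −0.87 at day 3, was at 0.09.

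Whether the genotype difference itself shifted from day 2 to day 3 was tested directly. It became more negative for 3 members, Mki67 (−0.95, SE 0.25, adjusted p = 0.0493), Cenpf (−0.93, SE 0.24, adjusted p = 0.0463) and Nusap1 (−0.95, SE 0.22, adjusted p = 0.0252), while 0.991% of all genes shifted that way. Of the 42 members 26 had an unadjusted p under 0.05, and the median shift was −0.55. Leaving out 1 library gave 0 to 6 called members, scaling by library totals 0, DESeq2 9, and voom 17. Without control replicates 3 and 4 of the group with no DT, or with only the groups compared, 14 were called. The libraries of day 3 carry the lane label 8 and those of other days the label of all lanes, so this shift and any change from another day to day 3 cannot be told apart from that label. Both genotypes of a given day carry the same label.

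Without DT, 12 members were higher and 4 lower in DTRADQ (12.7% of all genes were called higher and 14.4% lower), with a median of 0.20. Ect2 had the largest difference, with 50.9, 25.1, 25 and 41.9 CPM in controls and 78.1, 80.6, 62.4 and 66.2 CPM in DTRADQ. The groups did not overlap, and the log2 change was 1.01 (SE 0.18, adjusted p = 1.1e-04). The others that were higher were Kif20a (0.92), Bub1 (0.66), Bub1b (0.64), Kif2c (0.61), Ttk (0.59), Ncaph (0.54), Ncapg (0.51), Kif11 (0.51), Kif23 (0.45), Anln (0.42) and Kif20b (0.41).

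The 4 members that were lower without DT were Cdc20, Incenp, Spc24 and Birc5. Cdc20 stood at 25.1, 30.8, 50.1 and 78.5 CPM in control replicates 1 to 4 and 21.1, 21.2, 32 and 32.6 CPM in DTRADQ (log2 change −0.77, SE 0.23, adjusted p = 0.0115). Incenp stood at 39.9, 44, 90.6 and 104 CPM in controls and 35.7, 34.7, 41 and 54.3 CPM in DTRADQ (log2 change −0.74, SE 0.21, adjusted p = 0.0087). In both genes control replicates 3 and 4 were high and replicates 1 and 2 lay near the DTRADQ libraries. Spc24 stood at 38, 59.98, 105 and 75.9 CPM in controls and 43.2, 48.9, 44.7 and 49.3 CPM in DTRADQ (log2 change −0.57, SE 0.18, adjusted p = 0.0149). Birc5 stood at 400.3, 535, 626 and 451 CPM in controls and 284, 306, 369 and 426 CPM in DTRADQ (log2 change −0.54, SE 0.16, adjusted p = 0.0150). In all 4 genes the groups overlapped.

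Control replicates 3 and 4 also had the lowest levels of Kif20a, Kif22 and Kif2c in their group. Kif20a stood at 102, 40.0, 18.4 and 31.6 CPM in control replicates 1 to 4 and 88.3, 98, 95.1 and 86.3 CPM in DTRADQ, and Kif22 at 145, 136, 71.6 and 54.9 and 122, 139, 155 and 138 CPM. The highest and lowest controls were farther apart than the means of the genotypes in both genes. Late red cell genes summed to 276800 and 471100 CPM in control replicates 3 and 4, and mature neutrophil genes to 153000 and 225000 CPM, against 63080 to 85800 and 61780 to 71510 CPM in DTRADQ, and their part in these differences was not tested. Without these 2 libraries 3 members were called, all higher, while leaving out replicate 3 alone gave 7 and replicate 1 alone 25. The fit of only the groups without DT called 0 of the 42 in edgeR, while DESeq2 on all groups called 16 and 21 had an unadjusted p under 0.05 in the fit of all groups. Scaling by library totals, which moves the median of all genes to 0.41, called 25 higher and none lower.

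DT given to controls was compared with no DT in controls. At day 1, 18 members were higher and 5 lower (16% and 17.4% of all genes), at day 2 16 and 4 (13.8% and 14.4%), and at day 3 14 and 5 (14.8% and 15.4%). Ect2 was again the most changed, with 1.40, 1.15 and 1.16 at days 1, 2 and 3, followed at each day by Kif20a with 1.32, 1.14 and 1.00. All 3 comparisons share the 4 control libraries without DT. Without replicates 3 and 4 of that group the called members numbered 11, 8 and 6, and with only the groups compared 3, 1 and 1, all higher. Under scaling by library totals none was lower and 31, 33 and 26 were higher.

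The change within DTRADQ from no DT to each day of DT compares no control library. At day 1 Plk1 was the 1 member called higher (0.53, SE 0.15, adjusted p = 0.0307, against 1.26% of all genes called higher). That count was 14 without control replicates 3 and 4 of the group with no DT, 15 with only the groups compared and 16 with voom, all higher, 3 with DESeq2, and 0 with no filter or with library totals. In the fit of all groups the 4 libraries of day 1 lay above the 4 without DT for 19 members (7.19% of all genes), with a median of 0.24. At day 2 Birc5 (−0.52), Hmmr (−0.53), Cenpe (−0.46) and Kif15 (−0.39) were lower (4.85% of all genes were). Other fits called 0 (no filter) to 11 (library totals) lower at day 2, with 8 without those 2 control replicates, 7 with only the groups compared and 10 with voom. At day 3, 37 members were lower and none higher (16.8% of all genes were lower), and 37 had no overlap (21.7% of all genes). The median was −0.80. Cenpf went from 234, 222, 257 and 315 CPM without DT to 104, 91.1, 109 and 83.9 CPM at day 3, a log2 change of −1.41 (SE 0.18, adjusted p = 7.1e-07). The 5 members that did not pass were Bub1b, Kif2c, Plk1, Aurkb and Kif20a, with changes from −0.25 (Aurkb) to 0.01 (Plk1). With 1 library left out the counts were 0 to 1 at day 1, 0 to 6 at day 2 and 33 to 37 at day 3.

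The genotype by DT comparison asks whether the genotype difference after DT was other than the one without DT. At day 1 it was more negative for Bub1 and Ect2 and more positive for Birc5 (12.3% of all genes were called), a count that was 1 to 13 when 1 library was left out and 0 to 21 in other fits, the 21 under scaling by library totals and all more negative. At day 2 it was more negative for 5 members, Ect2 (−1.11), Bub1 (−0.81), Ncapg (−0.74), Kif11 (−0.69) and Anln (−0.55), against 4.88% of all genes. All 5 were among the members called higher in DTRADQ without DT, and no member was called between the genotypes at day 2 itself. The comparison takes in control replicates 3 and 4 without DT. The count of 5 was 4 to 18 with 1 library left out, 0 with only the groups compared, 8 with the replicate block, 16 with voom (15 of them more negative) and 38 with library totals. At day 3 it was more negative for 33 of 42 members (12% of all genes), with a median of −0.93. Ect2 had the largest shift (−1.91, SE 0.25, adjusted p = 5.1e-06), and Mki67 shifted by −1.11 (SE 0.25, adjusted p = 0.0021). The 9 that did not pass were Birc5, Ccna2, Cdc20, Cdk1, Incenp, Plk1, Prc1, Spc24 and Ube2c, among them all 4 members that were lower in DTRADQ without DT. Without control replicates 3 and 4 of the group with no DT the count stayed at 33, with a median of −0.73.

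The other cell cycle genes were read beside the members. Of 74 further mitosis genes (condensins, cohesins, centromere and spindle proteins outside the 42), 51 were lower and none higher at day 3, with a median of −0.57. None was called at day 1, and 3 were lower at day 2, a share near the 4.12% of all genes called lower then. Kif18a, a kinesin that dampens chromosome movements, was at 90.5 ± 8.21 CPM in controls and 35.7 ± 6.68 CPM in DTRADQ (SD, n = 4) at day 3, a log2 change of −1.34 (SE 0.17, adjusted p = 1.2e-06). Knl1, the kinetochore scaffold of the checkpoint, changed by −1.09 (SE 0.14, adjusted p = 9.2e-07) and Sgo1, shugoshin, which protects centromeric cohesion, by −1.08 (SE 0.13, adjusted p = 6.7e-07). Of 15 subunits and partners of the anaphase promoting complex, which acts in G1 as well, 3 were lower and none higher, with a median of −0.15, beside the 14.1% of all genes called lower. These were Fzr1 (−0.93), its activator in G1, Cdc27 (−0.45) and Anapc10 (−0.53). Fzr1 and Anapc10 were also lower in DTRADQ without DT (−0.84, adjusted p = 0.0121, and −0.52, adjusted p = 0.0109). Cdc27 was not (0.26, adjusted p = 0.1274).

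Regulators of the mitotic wave were in part lower at day 3: 10 of 19 E2F, DREAM and FOXM1 genes were lower and none higher (median −0.47, with 14.1% of all genes called lower). Mybl2, B-MYB, was at 7.84 ± 1.76 CPM in controls and 3.95 ± 0.514 CPM in DTRADQ (SD, n = 4), a log2 change of −0.99 (SE 0.24, adjusted p = 0.0029). Foxm1 was at 16.5 ± 1.37 CPM in controls and 14.6 ± 2.11 CPM in DTRADQ (SD, n = 4), and its estimate of −0.18 (SE 0.17, adjusted p = 0.4882) did not pass. E2f4, the main E2F of DREAM, changed by −1.29 (SE 0.19, adjusted p = 5.5e-06), Rbl1, the p107 pocket protein, by −0.93 (SE 0.14, adjusted p = 1.6e-05) and E2f8, a repressor of late S phase, by −0.85 (SE 0.15, adjusted p = 7.1e-05).

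DNA replication genes, which act in S phase before mitosis, were lower in 25 of 27 cases at day 3 (median −0.77, with 14.1% of all genes called lower). Already at day 2, 9 of 27 were lower (median −0.44, with 4.12% of all genes called lower), when none of the 42 members was. Ccne1, cyclin E1, was at 25.9 ± 3.62 CPM in controls and 8.12 ± 1.10 CPM in DTRADQ (SD, n = 4) at day 3, a log2 change of −1.68 (SE 0.21, adjusted p = 8.1e-07), and had changed by −1.17 (adjusted p = 0.00049) at day 2. Prim1, primase, changed by −0.76 (adjusted p = 6.6e-05) at day 3. The summed level of the members divided by that of the replication genes at day 2 was 1.73 to 1.98 in DTRADQ and 1.60 to 1.68 in controls, without overlap. Without DT this ratio was 1.69 to 1.85 in DTRADQ and 1.62 to 2.02 in controls, with overlap. The day 2 values of DTRADQ lay within the range of controls without DT. At day 3 it was 1.65 to 1.71 in DTRADQ and 1.67 to 1.78 in controls, with overlap. Whether the day 2 changes of these lists differ from each other was not tested.

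Genes that act at the entry into the cycle were counted as well. Of 6 G1 cyclins and kinases none was lower at day 3 and Ccnd2, cyclin D2, was higher. Of all genes, 14.1% were called lower and 8.80% higher at that day. Ccnd2 was at 71.3 ± 6.72 CPM in controls and 104 ± 4.96 CPM in DTRADQ (SD, n = 4), a log2 change of 0.55 (SE 0.11, adjusted p = 0.00058). Cdk2 and Cdk6 were at −0.25 and 0.40 and did not pass. Of 7 CDK inhibitors, which hold cells out of S phase, 5 passed the filter. At day 3 the 7 summed to 437.1 to 446.7 CPM in DTRADQ and 556.7 to 629.9 CPM in controls, without overlap. Cdkn1a, p21, was higher (0.54, SE 0.18, adjusted p = 0.0242), at 7.31 ± 1.05 CPM in controls and 10.7 ± 0.775 CPM in DTRADQ (SD, n = 4). Cdkn2c, p18, and Cdkn1c, p57, were lower (−1.14 and −2.06). Both were also lower without DT, Cdkn2c by −0.60 (adjusted p = 0.0227) and Cdkn1c by −1.31 (adjusted p = 0.0011). Cdkn1c had a low level at day 3, with 2.74 ± 0.418 CPM in controls and 0.657 ± 0.0925 CPM in DTRADQ (SD, n = 4).

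**Figure D4:**
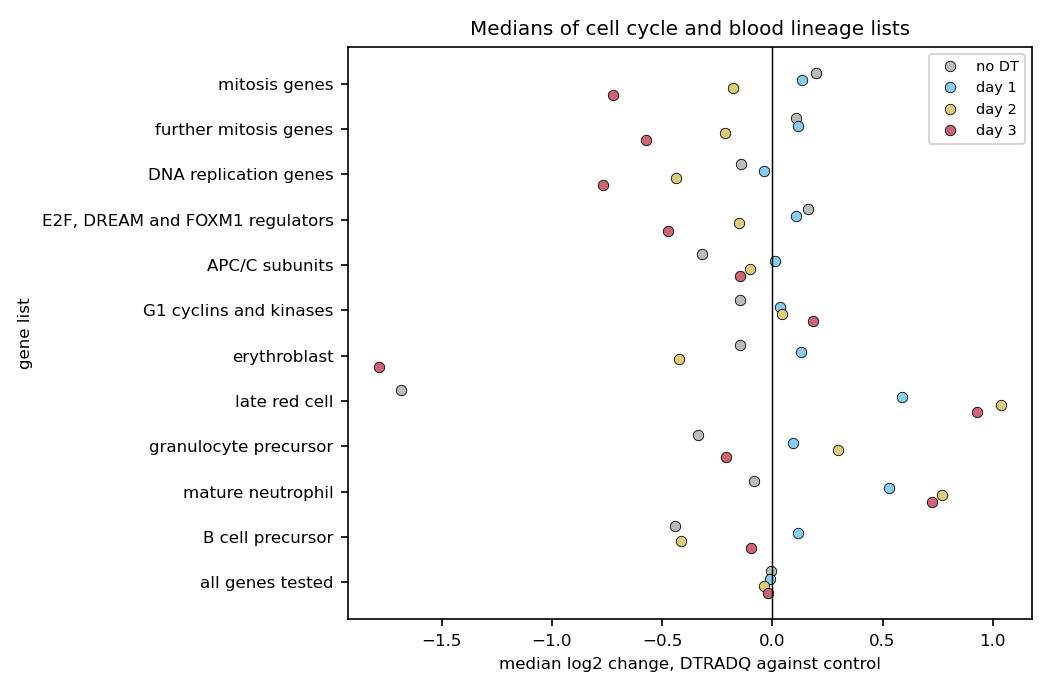
Median log2 change in DTRADQ against controls (horizontal axis) of cell cycle and blood lineage lists and of all genes tested (vertical axis), without DT and at days 1, 2 and 3. At day 3 the mitosis genes have a median of −0.73, close to DNA replication genes at −0.77, and erythroblast markers reach −1.78.

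Markers of blood lineages were counted beside the members at day 3. All 16 erythroblast markers were lower (median −1.78, with 14.1% of all genes called lower). They summed to 1618 to 2635 CPM in DTRADQ and 6571 to 8511 CPM in controls, without overlap. Of 8 late red cell genes, which include the globins, 7 passed the filter, and 3 of these were higher and none lower (median 0.93, with 8.80% of all genes called higher). None of 8 granulocyte precursor markers was called at day 3 (median −0.21, summed level 2758 to 4076 against 2935 to 5090 CPM), and of 12 B cell precursor markers 4 were lower and 1 higher (median −0.10). None of 8 stem and progenitor markers was called (median 0.22). Mature neutrophil genes were higher in 4 of 8 cases (median 0.72) and megakaryocyte genes in 3 of 6 (median 0.53), with none lower in either list. The summed neutrophil genes overlapped, with 59680 to 81440 CPM in DTRADQ and 48510 to 81200 CPM in controls. Those of megakaryocytes did not overlap (2615 to 3267 and 1895 to 2503 CPM). The part of these lists in the members' fall was not tested.

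At day 2, 1 of 16 erythroblast markers was lower and none higher (4.12% of all genes were called lower). Of these markers 7 had an unadjusted p under 0.05, and the median of all 16 was −0.43, against −0.18 for the members. Erythroblast markers summed to 3665 to 8460 CPM in DTRADQ and 5806 to 8754 CPM in controls, and only replicate 3 of DTRADQ was below all controls. In replicates 2 to 4 of DTRADQ the summed mitosis genes were below all 4 controls, while erythroblast markers were so in 1 of these 3. Skeletal muscle markers, a sign of other tissue in the sample, were called higher in 7 of 8 cases at day 3 (8.80% of all genes were called higher). Their summed levels were 110.4 to 671.8 CPM in DTRADQ and 29.76 to 58.14 CPM in controls, and their part in the members' fall was not tested.

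**Figure D5:**
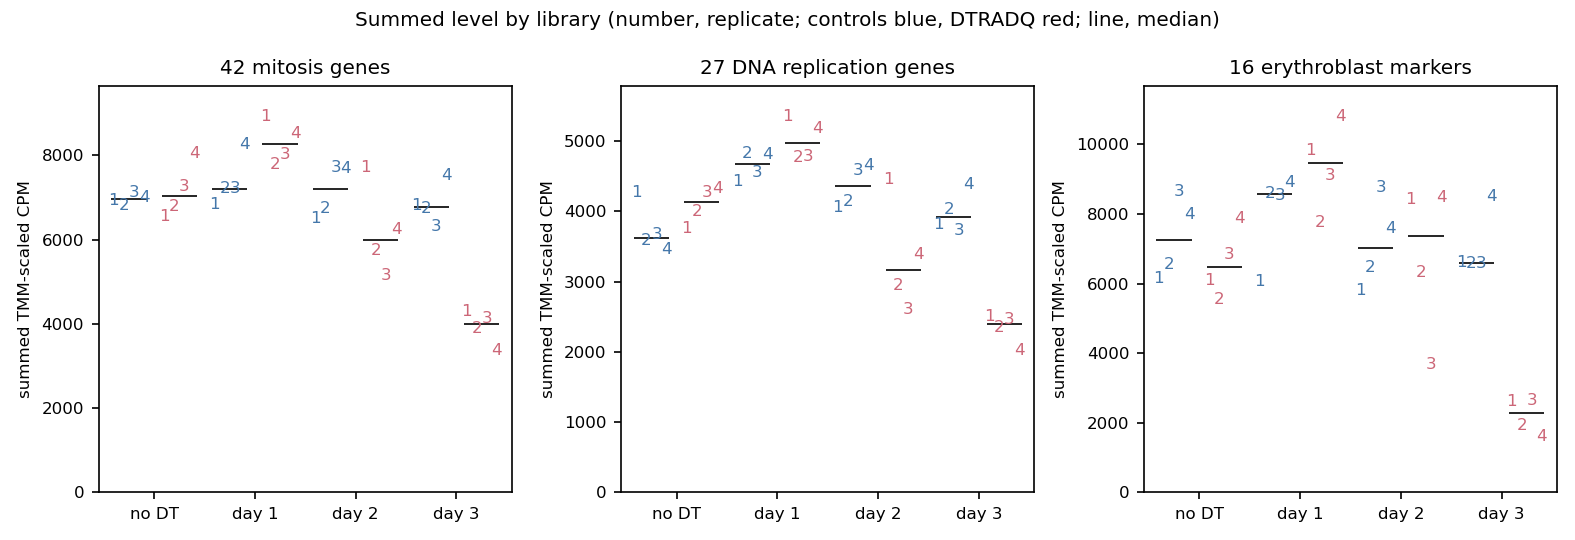
Summed CPM (vertical axes, from 0) of the 42 mitosis genes, 27 DNA replication genes and 16 erythroblast markers in each library by day of DT (horizontal axes); numbers are replicates, controls in blue and DTRADQ in red, and lines are medians. At day 3 the genotypes are apart in all 3 panels, and at day 2 DTRADQ replicate 1 stands above its group in the mitosis and replication panels.

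Exons of 9 members overlap those of another gene, and since the strand setting of the counting is not given in the sources used here, reads of such pairs cannot be told apart where they overlap. The largest overlap is that of Kif20a, with 33.2% of its length shared with Cdc23, a subunit of the anaphase promoting complex that was at −0.13 at day 3 (SE 0.21, adjusted p = 0.7208). Nusap1 shares 4.2% with Oip5, a centromere gene that was lower at day 3 (−1.17, SE 0.19, adjusted p = 3.6e-05). Ube2c shares 22.8% with Tnnc2, Kif4 15.1% with Pdzd11, Ccna2 14.6% with Exosc9 and Ncapg 13.3% with Lcorl. The other 33 members overlap no exon of another gene, and 3 of the 4 members that did not pass at day 3 (Bub1b, Kif2c and Plk1) are among them.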

How the data were processed

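Whole femur marrow RNA was measured in 32 libraries, with one table per library. The counts per gene were deposited by the authors together with CPM and RPKM values, per the file headers. The CPM and RPKM that the authors deposited equal the counts divided by library totals, and for RPKM by gene length (largest difference 4.4e-10 CPM, largest relative difference 3.8e-14 for RPKM), and only the counts were tested. Tools listed in the submitters' processing notes are STAR 2.0.4b, featureCounts 1.45, Subread and bcl2fastq, with the build GRCm38. How strand and multimapping reads were handled, and which annotation was used, is not given in the sources used here.

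Counts were fitted with edgeR 4.0.16 (R 4.3.3, limma 3.58.1): filterByExpr with a minimum count of 10, TMM factors, 1 mean per group over all 8 groups (24 residual degrees of freedom), quasi-likelihood tests of 14 comparisons and Benjamini-Hochberg adjustment over 14527 genes, with calls at an adjusted p below 0.05. The smallest chi-square per gene between libraries of a group was 8.88, so no library was a copy of another in its group. Libraries of different groups were not compared in this way. The fit was tested on simulated data. Levels are CPM with TMM factors, and levels per kilobase divide these by the deposited gene length. Gene starts and ends are those of the deposited tables.

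Members and lists were chosen with earlier results of these data known. Values by library are given for the most abundant member of each role, the 3 largest and 3 smallest changes at day 3, members called against the direction of most, and Mki67. From each further cell cycle list the 3 genes with the smallest p at day 3 are named, plus Foxm1, Mybl2 and Cdkn1a. One gene that this rule names is not reported here. Alternatives were DESeq2 1.42.0, its size factors, library totals without TMM, no filter, limma voom with library weights, a fit of only the groups compared, the replicate number as a block, each library left out in turn and, added after the data were seen, control replicates 3 and 4 without DT left out. Same-numbered libraries deviated together without DT (r = 0.144 to 0.178, each above 0.1). At day 1 no r was above 0.1 (−0.047 to 0.04), and at day 2 (−0.157 to 0.107) and day 3 (0.083 to 0.123) not every r was. The replicate numbers come from the sample titles, which do not say what a shared number means.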

Additional observations from a re-analysis of the deposited data

Results flagged for a closer look

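Over 144 groups of 4 libraries (17 members and the summed members, in 8 groups each), 12 had a library far from the others, and chance alone flags about 1 group in 20. A single library was high for Bub1b in DTRADQ at day 1 (120.9 CPM, next 97.18) and at day 2 (120.9, next 83.21), Cdc20 in controls at day 2 (36.62, next 29.64), Cdk1 in controls at day 3 (294.9, next 247) and Incenp in DTRADQ at day 3 (29.8, next 23.93). The same held for Kif20a in DTRADQ at day 1 (147.9, next 122.9), Mki67 in controls at day 2 (792.5, next 642.1), Top2a in controls at day 1 (1096, next 922.8) and Top2a in DTRADQ without DT (1005, next 914.8). A single library was low for Kif20a in controls at day 1 (109.1 CPM, next 124.8), Ube2c in controls at day 1 (165.4, next 232.9) and Ube2c in DTRADQ at day 2 (177.6, next 249.7).

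The genotype difference after DT was other than without DT for 3 members at day 1, 5 at day 2 and 33 at day 3. Of all genes tested, 12.3%, 11.1% and 21% were called in either direction in these comparisons. The genotype difference shifted from day 2 to day 3 for 3 members (1.36% of all genes), and all these counts are from edgeR's tests of the difference itself.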

How the results depend on the processing

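The fall of the members at day 3 kept its direction in every alternative run: 36 to 41 members were called lower in other fits and 29 to 36 with 1 library left out, against 38. Within DTRADQ at day 3 these counts were 36 to 38 and 33 to 37, and for genotype by DT at day 3 they were 22 to 41 and 31 to 35. Over the single members at day 3, 615 alternative values kept their side of the threshold, 48 lost it and 9 gained it, with no change of sign.

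Other counts of called members moved, for reasons not tested, and are given without the share of all genes called in the same fit. With control replicates 3 and 4 without DT left out they were 3 without DT, 6 at day 2, 11, 8 and 6 for DT in controls at days 1, 2 and 3, 14 and 8 for DT in DTRADQ at days 1 and 2, and 14 for the shift from day 2 to day 3. With only the groups compared they were 0 without DT, 1 at day 1, 2 at day 2, 3, 1 and 1 in controls, 15 and 7 in DTRADQ, 0 and 0 for genotype by DT at days 1 and 2, and 14 for the shift. With library totals they were 25 without DT, 20 at day 2, 33 in controls at day 2, 0 and 11 in DTRADQ, 21 and 38 for genotype by DT, and 0 for the shift. With voom they were 14 at day 2, 16 and 10 in DTRADQ, 11 and 16 for genotype by DT, and 17 for the shift. DESeq2 called 3 in DTRADQ at day 1 and 9 for the shift. With no filter, 0 and 0 were called in DTRADQ at days 1 and 2, and 1 and 3 for genotype by DT. DESeq2 size factors gave 1 for the shift, and for genotype by DT at day 1 again 3, but with 1 lower and 2 higher in place of 2 lower and 1 higher.

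The replicate block called 17 members without DT, where same-numbered libraries deviated together, against 16, and 0 with only the groups without DT. At the other days r was not above 0.1 for every number. There the block called 2 members at day 2, 8 for genotype by DT at day 2 and 39 at day 3, and no other count moved by over 1.5 times.

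With 1 library left out, counts ran from 7 to 25 without DT, 0 to 5 at day 2, 18 to 28, 13 to 27 and 11 to 27 in controls, 0 to 1 and 0 to 6 in DTRADQ, 1 to 13 and 4 to 18 for genotype by DT at days 1 and 2 and 0 to 6 for the shift. Control replicate 1 without DT gave the 25 and the 18, and replicate 3 gave the 7, 13 and 11. Without control replicate 2, genotype by DT at day 1 stayed at 3 with the directions reversed.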
